A study of Mus musculus with 4 samples.

Results

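Schwann cells and sympathetic axons reach the aorta in its outer coat, and their transcripts were followed here through 8 genes: the Schwann cell genes Sox10, S100b, Ngfr, Gfra3, Mbp and Pmp22, and the noradrenaline synthesis genes Th and Dbh. All probe sets that the platform annotation assigns to 1 of these genes alone were taken, 22 of the 34945 probe sets with a single gene symbol and of 45101 on the array. They are 8 of 18193 genes with such a probe set. Expression was measured in aorta of mice in 4 groups with 1 Affymetrix array each: Ath29 congenic mice on Western diet, Ath29 congenic mice on chow, C57BL/6 apoE-/- control mice (B6) on Western diet, and the same controls on chow. Ath29 mice carry a congenic segment on the C57BL/6 background and their disease label is resistance to atherosclerosis, while that of B6 mice is atherosclerosis. Of the apoE-/- genotype, the labels speak for the B6 groups and leave it unstated for the Ath29 groups. Mice were weaned onto chow at 3 weeks of age, and the Western groups changed diet at 4 weeks for 2 weeks. The labels do not say how many mice gave RNA to an array. Each difference below compares single arrays and lacks a replicate check.

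Postganglionic sympathetic axons run along the aorta wrapped by Schwann cells and release noradrenaline onto smooth muscle and perivascular fat. Their cell bodies lie in ganglia away from the vessel, so a dissected aorta holds the glial cell bodies but mainly the axons of the neurons. Sox10 is the transcription factor that specifies Schwann cells, Mbp and Pmp22 encode myelin proteins, and tyrosine hydroxylase (Th) and dopamine beta-hydroxylase (Dbh) make noradrenaline from tyrosine by way of DOPA and dopamine.

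The 2 enzyme genes are the members whose products define a noradrenergic neuron, and their promoters are shown because Th and Dbh both read low on these arrays. The 250 bases before each transcription start are given 5′ to 3′ from RefSeq (GRCm38.p6), Th from chr7:142899996-142900245 on the minus strand and Dbh from chr2:27165257-27165506 on the plus strand. Capitals mark TGACGTCA, the full cAMP response element, and CAATTA, a homeodomain-type core chosen after both sequences were read. Both motifs were searched on both strands.
Th: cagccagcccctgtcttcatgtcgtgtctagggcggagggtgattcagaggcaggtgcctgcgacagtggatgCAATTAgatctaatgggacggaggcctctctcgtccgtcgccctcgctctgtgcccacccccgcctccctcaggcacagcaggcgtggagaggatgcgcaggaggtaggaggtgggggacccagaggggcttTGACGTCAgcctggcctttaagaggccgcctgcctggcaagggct
Dbh: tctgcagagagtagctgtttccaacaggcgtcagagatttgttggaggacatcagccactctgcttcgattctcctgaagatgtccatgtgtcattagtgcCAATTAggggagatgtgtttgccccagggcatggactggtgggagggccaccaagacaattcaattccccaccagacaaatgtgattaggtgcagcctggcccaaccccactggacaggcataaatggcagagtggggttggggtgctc
The Th window holds 1 TGACGTCA, which begins 45 bases before the start, and the Dbh window holds 0. Each holds 1 CAATTA. Of 32851 promoter windows of this length, 1.55% hold TGACGTCA, 7.17% hold CAATTA and 0.0822% hold both. A match is a description of the letters only.

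The arrays carried the signal of vessel wall. Acta2, smooth muscle actin, read 10674, 10395, 10634 and 11269 intensity units in Ath29 Western, Ath29 chow, B6 Western and B6 chow, and this order of arrays is kept below. The protocol text speaks of liver, but Alb, the main hepatocyte transcript, read 56.0, 64.0, 54.5 and 33.7. Values are the deposited intensities scaled to a common array median. The median of all probe sets, 27.4, served as the line between low and higher signal, and a floor of 9.60, the 25th percentile of all values, was set before differences were taken. Differences are log2 values of Ath29 minus B6, or of Western minus chow.

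The nerve and Schwann cell probe sets lay on both sides of the median line. By mean over the 4 arrays 10 of the 22 were above it and 12 below it, where 54.8% of all single-gene probe sets were above it. On every single array 8 lay above it and 11 below it, and 3 lay at the floor on all 4 arrays. Of the 8 genes, 6 had a probe set above the line, against 64.4% of all genes, and Ngfr and Th had none. The genes with a probe set above the line were Sox10, S100b, Gfra3, Mbp and Pmp22, and Dbh close to it. A place above the line does not show which cells the signal came from.

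**Figure D1:**
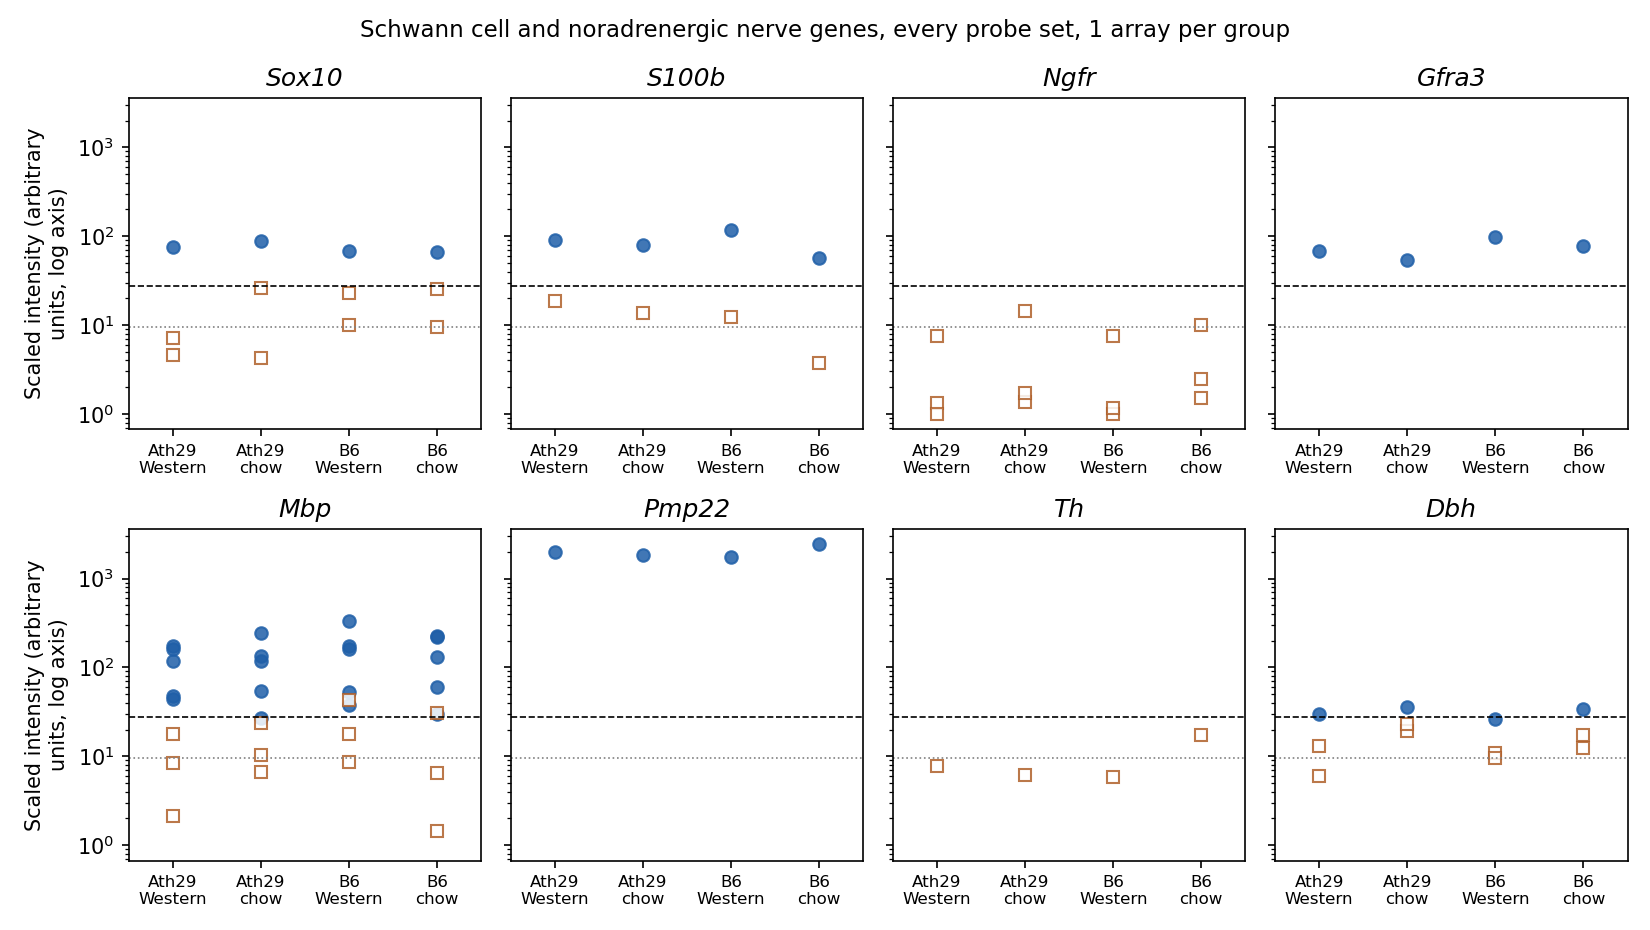
Scaled intensity (arbitrary units, log axis) of each probe set of the 8 genes on the 4 arrays, 1 point per probe set and array. Filled circles have a mean above the median of all probe sets (dashed line, 27.4), open squares a mean below it, and the dotted line is the floor of 9.60. Pmp22 lies far above the line, and all points of Ngfr and Th lie below it.

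Sox10 read 76.4 in Ath29 Western and 88.6 in Ath29 chow, against 67.6 in B6 Western and 65.9 in B6 chow, with its brightest probe set. Both Ath29 arrays read above both B6 arrays, by log2 differences of 0.18 on Western diet and 0.43 on chow. The other 2 Sox10 probe sets lay below the median line on all arrays. One of them (1425369_a_at) read 7.16, 26.2, 23.2 and 25.2, so that Ath29 Western, which lay under the floor, stood apart from the other 3 arrays. Set at the floor, it was at least 2.42-fold lower than B6 Western and at least 2.73-fold lower than Ath29 chow, and the brightest Sox10 probe set gave no such gap. The third read 4.60, 4.28, 9.94 and 9.55, at or near the floor throughout. The Sox10 probe sets thus gave no shared difference. The ratio of 3' to middle signal of the actin control, a measure of RNA integrity, was 7.62 and 10.2 in Ath29 Western and chow, against 5.63 and 5.10 in B6 Western and chow, the same order of arrays as the brightest Sox10 probe set. The same ratio for Gapdh was 10.6, 8.87, 9.54 and 9.23, another order. The part of RNA integrity in the Sox10 values was not tested.

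S100b, a calcium-binding protein of Schwann cells that fat cells make as well, gave the largest difference of any member above the line. It read 91.5 in Ath29 Western and 79.2 in Ath29 chow, against 117 in B6 Western and 56.6 in B6 chow. B6 Western was highest and B6 chow lowest, 2.07-fold apart (log2 difference 1.05), while Western minus chow in Ath29 mice was 0.21. Ath29 minus B6 was -0.36 on Western diet and 0.49 on chow. The other S100b probe set, below the median line on all arrays, read 18.6 and 13.7 in Ath29 Western and chow, against 12.4 and 3.78 in B6 Western and chow. It shared the low place of B6 chow but put Ath29 Western highest. Western minus chow was 0.44 in Ath29 and at least 0.37 in B6, where the chow value lay under the floor. The diet differences of the strains can thus not be ranked with this probe set.

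Markers of fat had their highest and lowest arrays in common with S100b, and the reverse order of the Ath29 arrays in between. The 9 white fat genes above the line, relative to each gene's own mean, had a median of -0.13, 0.17, 0.46 and -0.41, and the 10 brown fat genes one of -0.20, 0.24, 0.70 and -0.77. Of them 8 and 9 read highest in B6 Western. Summed intensity of the 10 white fat genes with a probe set was 24983 in Ath29 Western, 28002 in Ath29 chow, 30340 in B6 Western and 23554 in B6 chow. Summed heart muscle signal, over 14 genes, was 775 in Ath29 Western, 873 in Ath29 chow, 11508 in B6 Western and 1207 in B6 chow, and that of 12 skeletal muscle genes was 206, 232, 815 and 392. Fat and heart muscle signal were both highest in B6 Western, where S100b was highest, and fat signal was lowest in B6 chow, where S100b was lowest. Summed signal of 12 macrophage genes was 9416 and 5887 in Ath29 Western and chow, against 9648 and 4801 in B6 Western and chow. The sums had the same order of all 4 arrays as the brighter S100b probe set. The median relative to each gene's own mean, over the 10 macrophage genes above the line, had another order. It was 0.45, -0.23, 0.30 and -0.54, with Ath29 Western highest, and 5 genes read highest in each Western array. The part of fat, heart muscle and macrophages in the S100b difference was not tested. The B6 Western array enters the Western strain comparison and the B6 diet comparison of every gene. The part of these tissues in other genes there was not tested either. In bulk tissue, fewer cells of a type and less RNA per cell cannot be told apart.

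**Figure D2:**
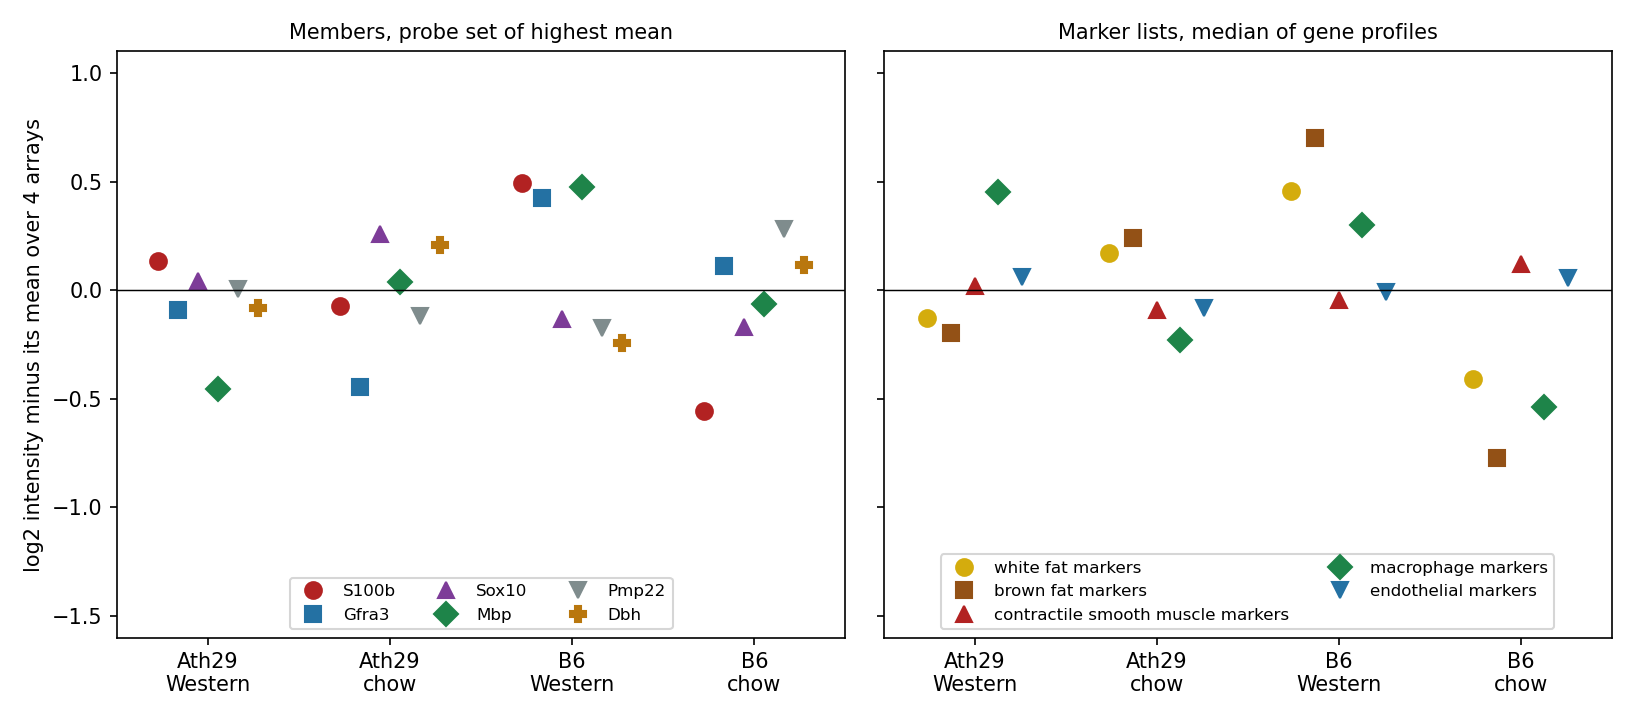
Log2 intensity minus its mean over the 4 arrays, for the brightest probe set of the 6 members above the median line (left) and as the median over genes of 5 marker lists (right). S100b, white fat and brown fat are all highest in B6 Western and lowest in B6 chow. Gfra3 and Mbp are also highest in B6 Western but not lowest in B6 chow, while Sox10, Pmp22 and Dbh are not highest in B6 Western.

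Gfra3, the receptor subunit that binds artemin and hands the signal to Ret, was the member with the most even strain difference. It read 68.1 and 53.3 in Ath29 Western and chow, against 97.7 and 78.5 in B6 Western and chow. Both Ath29 arrays read below both B6 arrays, and Western read above chow in each strain. Ath29 minus B6 was -0.52 on Western diet and -0.56 on chow. Western minus chow was 0.35 in Ath29 and 0.32 in B6 mice. An additive fit of strain and diet across all single-gene probe sets with limma gave a strain term of -0.54 ± 0.15 (SE, 4 arrays) for Gfra3, with an unadjusted p of 0.0832 and a Benjamini-Hochberg adjusted p of 0.911. Gfra3 has 1 probe set, so no other probe set bears on it. The actin ratio given for Sox10 also separated the strains, with the Ath29 arrays higher, and its part in the Gfra3 values was not tested. Its ligand gene Artn read 1.48, 7.99, 4.37 and 11.3, and Ret read 23.4, 26.9, 21.4 and 14.9, all below the median line.

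Ngfr, the low-affinity neurotrophin receptor of immature and non-myelinating Schwann cells, was not told apart from background. A pair of its 3 probe sets lay at the floor on all 4 arrays, between 0.992 and 2.47. The third read 7.49 and 14.4 in Ath29 Western and chow, against 7.47 and 9.98 in B6 Western and chow. No difference of Ngfr is interpretable from these values. Sort1, a partner of Ngfr in binding proneurotrophins, read 844, 746, 933 and 750.

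Mbp, myelin basic protein, has 8 probe sets, of which 5 lay above the median line. The Mbp gene also gives longer golli transcripts, which are made in lymphoid cells, and all 8 probe sets carry a suffix for probes that can match several transcripts. The brightest (1456228_x_at) read 174 in Ath29 Western and 244 in Ath29 chow, against 331 in B6 Western and 228 in B6 chow. B6 Western was the highest array and Ath29 Western the lowest, 1.91-fold apart. The next (1436201_x_at) read 159, 136, 175 and 218, with B6 chow highest. The other 3 above the line read 117, 119, 162 and 129 (1454651_x_at), 44.3, 54.1, 52.5 and 60.8 (1451961_a_at), and 47.9, 27.2, 37.9 and 30.3 (1419646_a_at).

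On each diet taken alone, most Mbp probe sets read lower in Ath29 than in B6 mice, but not always the same ones. The brightest was lower in Ath29 mice on Western diet (-0.93) and slightly higher on chow (0.10). Western minus chow was mostly below 0 in Ath29 and mostly above 0 in B6 mice. Ath29 minus B6 was below 0 in 6, above 0 in 1 and exactly 0 at the floor in 1 of the 8 on Western diet, with a range of -1.26 to 0.34. On chow it was below 0 in 5, above 0 in 2 and 0 in 1, with a range of -0.69 to 0.10. These probe sets share a gene and an RNA sample and are not replicates. Over all single-gene probe sets above the line, the median Ath29 minus B6 was -0.08 on chow and -0.001 on Western diet. The share of all probe sets below 0 was not taken. Some counted differences were small, such as -0.02 (1454651_x_at) and -0.10 (1425264_s_at) for diet in Ath29 mice. Western minus chow was below 0 in 5, above 0 in 2 and 0 in 1 in Ath29 mice, with a range of -0.49 to 0.82. In B6 mice it was below 0 in 2, above 0 in 5 and 0 in 1, with a range of -0.32 to 0.89. The widest strain difference came from 1433532_a_at, which read 17.9 in Ath29 Western against 42.7 in B6 Western, 2.39-fold lower and with the Ath29 value under the median line. B6 Western was the highest array for 5 of the 8 probe sets, 1 of which lay at the floor on all 4 arrays, against 8727 of all 34945 single-gene probe sets. Summed signal of 10 lymphoid genes was 373, 412, 393 and 360. Fat and heart muscle signal, given above, were highest in B6 Western as well. The part of fat, heart muscle, lymphoid cells and macrophages in the Mbp values was not tested.

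Pmp22, a tetraspan myelin protein that fibroblasts and endothelium also express, was the only member with strong signal on all arrays. Its single probe set read 2006 and 1838 in Ath29 Western and chow, against 1770 and 2429 in B6 Western and chow. B6 chow was highest and the other 3 arrays lay close together. Ath29 minus B6 was 0.18 on Western diet and -0.40 on chow, and Western minus chow was 0.13 in Ath29 and -0.46 in B6. Fibroblast and smooth muscle markers were also highest in B6 chow, in 9 of 12 and 11 of 13 genes, against 34.9% of all 11713 genes above the line, and so were 4 of 10 endothelial genes. With unscaled arrays the counts were 8 of 12 and 11 of 13, against 30.1% of all. Their part in the Pmp22 values was not tested.

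Th, the rate-limiting enzyme of noradrenaline synthesis, read 7.71 in Ath29 Western and 6.10 in Ath29 chow, against 5.87 in B6 Western and 17.6 in B6 chow. The value in B6 chow alone lay above the floor, and it lay below the median line, so no Th difference is exact. Dbh, which turns dopamine into noradrenaline, read 29.7 and 36.3 in Ath29 Western and chow, against 26.6 and 34.1 in B6 Western and chow with its brightest probe set. Chow read above Western in each strain, with Western minus chow at -0.29 in Ath29 and -0.36 in B6 mice. The other Dbh probe sets, both below the median line, gave -0.56 and -1.27 in Ath29 mice and -0.68 and -0.37 in B6 mice. The values -1.27 and -0.37 (1459848_x_at) are bounds, as its Western readings of 6.04 in Ath29 and 9.51 in B6 mice lay under the floor. All 3 Dbh probe sets thus read lower on Western diet in both strains, at signals near or below the median of the array. The share of all probe sets that did so was not taken. The Dbh probe sets share a gene and the RNA samples and are not replicates. The limma diet term of the brightest was -0.33 ± 0.23 (SE, 4 arrays) with an adjusted p of 1. Between strains the Dbh probe set above the line differed by 0.16 on Western diet and 0.09 on chow.

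Over the 22 probe sets, 2 were at least 2-fold different between Ath29 and B6 mice on Western diet, where 4.84% of all single-gene probe sets were. Both, of Sox10 and Mbp, were lower in Ath29 mice and lay below the median line. On chow 0 of the 22 differed by 2-fold, against 5.37% of all. Between Western diet and chow 2 were at least 2-fold lower in Ath29 mice, of Sox10 and Dbh, against 4.57% of all called in either direction, and 1 was higher in B6 mice, of S100b, against 5.77%. Of these 5 calls, 4 came from probe sets below the median line. Among all single-gene probe sets, those below the line were called more often than those above it in every comparison: 6.95% and 3.09% for strain on Western diet, 6.76% and 4.21% for strain on chow, 7.21% and 2.38% for diet in Ath29 mice, and 6.63% and 5.05% for diet in B6 mice. With 0 to 2 of 22 called, the members' share lay near the background in each comparison.

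**Figure D3:**
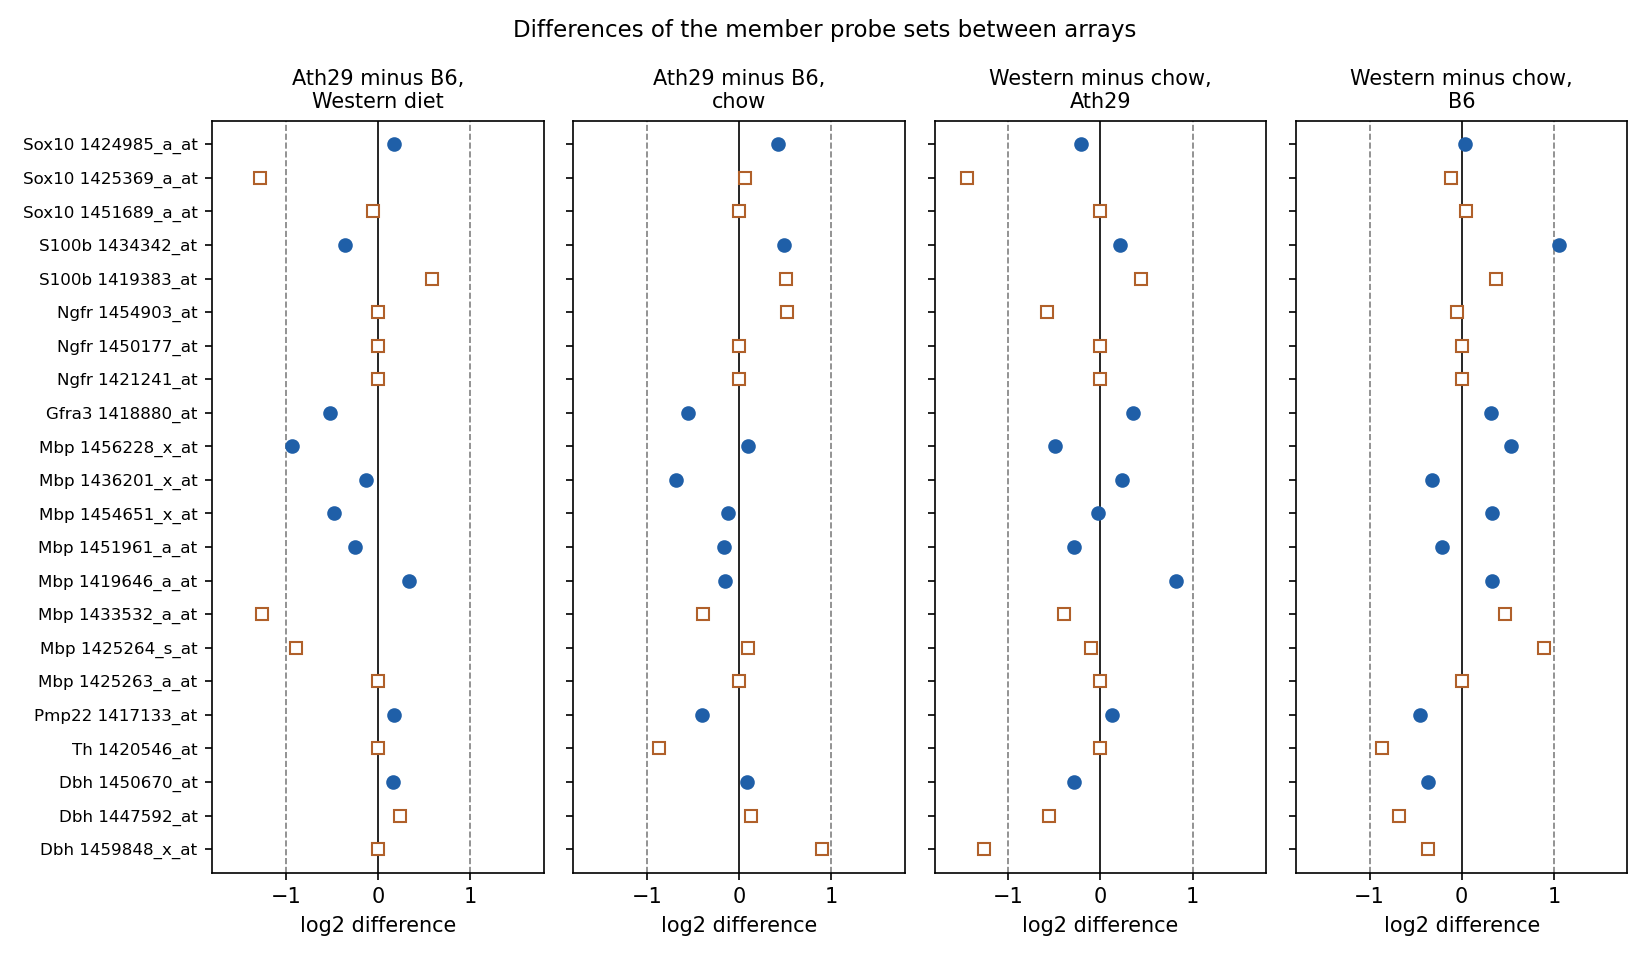
Log2 difference of each of the 22 probe sets in the 4 comparisons, with dashed lines at 2-fold. Filled circles have a mean above the median of all probe sets and open squares below it. Of the filled circles, S100b in the B6 diet comparison alone lies past a dashed line.

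No member repeated a difference at 1.5-fold. The 2 strain comparisons share no array with each other, nor do the 2 diet comparisons. In the same direction on both diets, 0 of the 22 probe sets differed by at least 1.5-fold between strains, against 2.35% of all. In the same direction in both strains, 0 differed by at least 1.5-fold between diets, against 2.25% of all. The additive limma fit called 0 members at an adjusted p under 0.05 for strain and 0 for diet, and 0.0% of all probe sets for either term. At an unadjusted p under 0.05 the dimmer S100b probe set was called for strain, 1 of 22 against 3.58% of all, and 2 members were called for diet (that S100b probe set and 1447592_at of Dbh) against 3.17%. All 3 of these calls lie below the median line. For S100b, the strain by diet difference of 0.07 that enters the error was taken after B6 chow (3.78) was raised to the floor. Both S100b calls thus rest on a floored value. Across the 4 arrays the members had a median range of 1.68-fold, and all single-gene probe sets one of 1.42-fold.

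Other Schwann cell genes gave a background against which to read the members. Of 22 lineage and non-myelinating Schwann cell genes listed, 21 had a probe set of their own and 16 lay above the line. The median Ath29 minus B6 difference was -0.15 on Western diet and 0.01 on chow, against 0.00 and -0.08 over all 11713 genes above the line. The median Western minus chow difference was -0.02 in Ath29 and 0.25 in B6 mice, against 0.04 and -0.06 over all genes. Erbb3, the neuregulin receptor subunit on which Schwann cells depend, read 72.8, 77.1, 92.6 and 66.6. Cdh19, a cadherin of Schwann cell precursors, read 51.8, 82.0, 91.0 and 49.9. Both were highest in B6 Western, as were 8 of the 16 genes, while 26.4% of all genes above the line were highest there.

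Among the 16 genes above the line, 3 were past 2-fold in some comparison. There was 1 for strain on Western diet, 1 for strain on chow, 0 for diet in Ath29 and 2 for diet in B6 mice, where 2.83%, 4.09%, 2.16% and 5.27% of all genes above the line were. Egr2, the transcription factor that drives myelination and also an immediate-early gene in other cells, read 87.4 in Ath29 Western against 218 in B6 Western, a log2 difference of -1.32. Adgrg6, an adhesion receptor required for myelination, read 41.8 in Ath29 chow against 15.8 in B6 chow, and 47.8 in B6 Western. Cdh2, N-cadherin, read 295 in B6 Western against 128 in B6 chow, a difference of 1.20. Below the line, Fabp7, a lipid-binding protein of immature Schwann cells, read 26.4, 21.7, 9.02 and 15.8, and the transcription factor Sox2 read 2.86, 11.1, 12.4 and 26.6, both with differences past 2-fold. The brightest of the list were Ncam1, an adhesion molecule (2396, 2195, 2305 and 2921), Ptprz1, a receptor phosphatase (2465, 1527, 1809 and 2408), and Art3 (1901, 1854, 2086 and 1653), and none of them differed by 2-fold in any comparison.

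Of 13 other myelin genes listed, 9 had a probe set of their own, 4 lay above the line and 0 of the 9 differed by 2-fold. Cnp, an enzyme of myelinating cells that many cells express at a low level, read 354, 312, 347 and 400. Ncmap, a myelin-associated protein of peripheral nerve, read 61.3, 69.1, 74.7 and 88.1, and Mal, a myelin and lymphocyte proteolipid, 63.2, 89.3, 65.5 and 60.7. Mag, the myelin-associated glycoprotein, read at most 12.9. Markers of central nervous system glia were weak as well, with Olig2 at most 3.95 and 3 of 9 above the line, namely the transporter Slc1a3 (260, 218, 331 and 111), Mobp (40.7, 45.2, 31.4 and 34.9) and Opalin (13.6, 32.6, 46.8 and 34.5).

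Along the noradrenaline pathway, Ddc, which makes dopamine from DOPA, read 32.0, 26.2, 28.8 and 38.5, and the vesicle transporter Slc18a2 at most 7.93. The reuptake transporter Slc6a2 read 66.9, 69.5, 67.8 and 91.1. Maoa, which breaks noradrenaline down, read 173, 111, 147 and 190, and Pnmt, which makes adrenaline from it, 415, 291, 347 and 402. Cyb561, the electron donor that keeps ascorbate reduced for Dbh in its vesicles, read 921, 861, 712 and 935. Of 22 genes in the list, 19 had a probe set and 12 lay above the line. Among these 12, 1 gene was past 2-fold higher and 0 lower in Ath29 mice on chow (Hand2, a transcription factor of sympathetic neurons and of heart, at 2.27), against 4.09% of all genes above the line in either direction. Hand2 read 17.6, 163, 48.1 and 33.9, with Ath29 chow apart from the other arrays. On Western diet 1 was higher (Gata3, another sympathetic transcription factor, at 1.09) and 1 lower (Hand2, at -1.45), against 2.83%. Between diets 1 was lower on Western diet in Ath29 mice (Hand2, at -3.22) and 0 were higher, against 2.16%. In B6 mice 0 were past 2-fold between diets, against 5.27%. Below the line, the chromaffin granule gene Chga read 10.3 and 12.3 in Ath29 Western and chow, against 30.9 and 27.1 in B6 Western and chow. It was lower in Ath29 mice on both diets, by log2 differences of -1.58 on Western diet and -1.14 on chow. Chga was the only gene of the nerve and Schwann cell lists past 2-fold in the same direction in both strain comparisons. Its Ath29 values lay close to the floor of 9.60, and it was named after its values were seen. The share of all genes past 2-fold in both strain comparisons was not taken. The sympathetic transcription factor Phox2a, also below the line, had strain differences of -1.53 on Western diet and 1.16 on chow. Its diet differences were -1.04 in Ath29 and 1.64 in B6 mice. Its B6 chow value (8.66) lay under the floor, so 1.16 and 1.64 are bounds.

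Of the 12 noradrenergic genes above the line 6 were highest in B6 chow, and of 15 neuronal cytoskeleton and synapse genes 8 were, against 34.9% of all genes above the line. With unscaled arrays the counts were 4 of 12 and 6 of 15, against 30.1% of the same genes, so they lay closer to the background. Stmn2, a microtubule regulator of growing axons, read 191, 172, 224 and 266, Uchl1, an abundant neuronal ubiquitin hydrolase, 51.4, 48.9, 37.7 and 74.1, and Tubb3, neuronal tubulin, 28.8, 26.8, 24.8 and 39.2. The differences of these 3 genes stayed under 2-fold, and all 3 were highest in B6 chow. Of the 15 genes, 4 were highest in Ath29 Western, 2 in Ath29 chow and 1 in B6 Western. The synapse genes Syn1 (87.7, 63.1, 77.9 and 31.0) and Syn2 (236, 248, 210 and 165) were lowest in B6 chow. Of the 15, past 2-fold for strain were 3 on Western diet (2 higher and 1 lower in Ath29 mice) and 1 on chow (higher). For diet they were 0 in Ath29 mice and 3 in B6 mice (2 higher and 1 lower on Western diet). In the same order, 2.83%, 4.09%, 2.16% and 5.27% of all genes above the line were past 2-fold. The neurofilament genes Nefl, Nefm and Nefh read at most 13.5, 12.9 and 8.01. The brightest genes of the neuronal list were Rab3a (1294, 1258, 1203 and 1322), Stx1a (1256, 1254, 1045 and 1285) and the tau gene Mapt (253, 218, 545 and 152). Rab3a and Stx1a serve vesicle release in other secretory cells too. Their probe sets, like those of Cnp and Slc1a3, carry the _x suffix for probes that can match several transcripts.

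Adrenal tissue is another rich source of Th and Dbh near the aorta. Of 8 adrenal cortex genes with a probe set, 6 lay below the line, with Cyp11a1 at most 21.6 and Star at most 22.7, while the receptor Mc2r (35.2, 40.3, 48.2 and 38.1) and the transcription factor Nr5a1 (33.2, 37.7, 35.1 and 35.2) lay just above it. Of the chromaffin genes given above, Pnmt lay well above the line and Chga had a mean below it. The part of adrenal tissue in the Th and Dbh values was not tested. Among sensory and cholinergic nerve genes 4 of 12 with a probe set lay above the line, with Gal, a neuropeptide, at 62.0, 73.3, 53.1 and 59.0, the substance P gene Tac1 at 33.2, 37.6, 46.2 and 37.5, and the nitric oxide synthase Nos1 at 33.5, 24.0, 36.5 and 31.2. The neurotrophin receptor Ntrk2 (1350, 1564, 2129 and 1140) and the endothelin receptor Ednrb (877, 1099, 1180 and 637) were highest in B6 Western and lowest in B6 chow, the order of S100b at its ends and of both fat lists. Their list of neurotrophic ligands and receptors did not share this order. Of its 11 genes above the line 5 were highest in B6 Western, against 26.4% of all, 4 in Ath29 Western and 2 in B6 chow. Its median Western minus chow difference in B6 mice was 0.03. Of 9 adrenergic receptor genes listed, 2 had a probe set of their own, and 1, Adra1b, lay above the line at 45.3, 60.8, 12.7 and 49.4, with B6 Western under it.

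Among 11712 other genes, those with profiles most like the members' over the 4 arrays were Trim34a and Elf1 for Sox10, Tha1 and Max for S100b, Bcl7b and Casp8 for Gfra3, Coa7 and Dnajc21 for Mbp, Atcayos and Cnot2 for Pmp22, and Arsg and Phykpl for Dbh. The root mean square distance between log2 profiles, each centred on its own mean, ran from 0.0056 for Coa7 to 0.045 for Max and Tha1. None of these genes is on the Schwann cell or nerve lists. With 4 arrays and so many genes, profiles this close are found for every member.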

How the data were processed

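The authors deposited intensity values, 1 per probe set and array. That they are linear was inferred from their span, 0.57 to 13421. Per the labels' protocols, biotin-labelled cRNA was made from 8 ug of total RNA. How probes were summarised, background-corrected and scaled is not given in the sources used here. Array medians before scaling lay between 27.95 and 28.8. Gene names came from the platform annotation, and 34741 of 34945 symbols were updated through gene identifiers to GRCm38.p6.

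Intensities were taken to log2, shifted to a common median (factors 0.997, 0.990, 0.992 and 1.02) and floored at the 25th percentile (9.60). A difference against a floored value is a bound. Genes other than the members were read from their probe set of highest mean where it passed the median of all probe sets (27.4). The additive model (strain and diet, 1 residual degree of freedom, prior variance with a trend) used limma 3.58.1 with Benjamini-Hochberg adjustment over 34945 probe sets. Its error is the strain by diet difference, moderated by the prior variance. Probe sets floored on all 4 arrays have no spread of their own in it.

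The members, lists and rules were chosen with earlier results of these data known. Named were all members, the 3 brightest genes of each nerve list, any repeated 2-fold difference above the median, and the 2 nearest profiles of each member. Lists of other cell types are given by their sums, medians and counts. Adgrg6, Alb, Artn, Cdh19, Cdh2, Chga, Cyp11a1, Ddc, Egr2, Erbb3, Fabp7, Gata3, Hand2, Mag, Nefh, Nefl, Nefm, Olig2, Phox2a, Ret, Slc18a2, Slc6a2, Sox2, Star, Stmn2, Syn1, Syn2, Tubb3 and Uchl1 were named after their values were seen.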

Additional observations from a re-analysis of the deposited data

How the results depend on the processing

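Counts of member probe sets past 2-fold were 2 for strain on Western diet, 0 for strain on chow, 2 for diet in Ath29 and 1 for diet in B6. Unscaled arrays, a common 75th percentile and quantile normalization gave the same counts. With the floor at the 40th percentile they were 1 for strain on Western diet and 0 for diet in Ath29 mice. Leaving out probe sets with an _x, _s or _a suffix (10 members left), or with only those above the median (10 left), both of these were 0. With no floor beyond 1 the counts were 5 for strain on Western diet, 4 for strain on chow and 6 for diet in B6, against 16.9%, 17.0% and 17.4% of all probe sets. At 1.5-fold they were 4, 3 and 4, against 17.7%, 19.6% and 18.9%. S100b in the B6 diet comparison stayed past 2-fold in every alternative. The limma fit called 0 members under every alternative, with lowest adjusted p-values from 0.737 to 1. Over all probe sets it called 9 for strain and 7 for diet with the filter, and 4 for strain with no floor, against 0 and 0. Of 520 alternative values of member differences 23 moved by over 1.5-fold, all under the floor alternatives, and 0 called ones reversed. No paired analysis was possible because each group has 1 array and the labels carry no replicate numbers. Signal below the median line limits Ngfr and Th, and the number of arrays limits all members. Both RNA controls had far more 3' than 5' signal on every array. The part of this in the low readings of Th, Ngfr and other genes was not tested.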
